A study of Papio anubis with 60 samples.

Results

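In induced pluripotent stem cells (iPSC) of the olive baboon, Papio anubis, the peaks of H3K4me3 were compared with those of H3K9me3 on chromosomes 1 to 20. The members were all intervals of the deposited H3K4me3 and H3K9me3 lists on these chromosomes, taken by chromosome, start and end: 308062 H3K4me3 peaks and 209447 H3K9me3 peaks, 517509 of the 2116963 peaks in the 8 lists of the series. The series profiled 4 histone marks by chromatin immunoprecipitation with sequencing (ChIP-seq) in 2 embryonic stem cell lines (B4 and B15) and 2 iPSC lines (160-2 and M14939#3). Each iPSC mark had 3 replicates of both lines, 6 libraries, prepared from 50000 cells each after digestion with micrococcal nuclease. Only 1 peak list was given per mark, and how the libraries were combined into it was not stated. The lines were untreated as far as the labels say and were grown on feeder cells. No gene was tied to a peak, so the cells were not checked against marker genes.

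H3K4me3 is laid down at the start sites of genes, above all where CpG-rich DNA recruits its methyltransferases, and marks promoters that are active or poised. H3K9me3 is laid down by other methyltransferases at repeats, silenced transposons and zinc finger gene clusters, often through KRAB zinc finger proteins and their corepressor, and is bound by heterochromatin proteins. The marks are generally found on different nucleosomes, and their joint presence in pluripotent cells is known from silenced transposons and some developmental or imprinted genes. H3K27ac marks active promoters and enhancers, and H3K27me3 is the mark of Polycomb repression.

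The H3K4me3 peaks covered 141 Mb, 5.42% of the autosomes, with a median width of 290 bp. The H3K9me3 peaks covered 181 Mb, 6.96%, with a median width of 522 bp. Neither list held peaks that overlapped each other. Each list is a single list, so no value below has a replicate error and no p-value is given. Intervals are 95% Wilson intervals that cover counting error alone, and the spread over the 20 autosomes is given where it bears on a statement. The level to which an overlap is compared was found by moving one list around each chromosome as a circle, 100 times, and is called the shifted level.

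H3K4me3 and H3K9me3 met slightly more often than in the shifted lists when peaks were counted, and slightly less often when base pairs were counted. Of the H3K4me3 peaks, 36951 shared at least 1 bp with an H3K9me3 peak, which is 12.0% (11.9 to 12.1), against a shifted level of 10.4% (range 10.1 to 10.7). This excess turned to a deficit in 2 of 6 other settings and stayed in 4. With peaks of high −log10 q alone, the share was 0.949 times the shifted level. In the other direction, 30810 H3K9me3 peaks, 14.7% (14.6 to 14.9), met an H3K4me3 peak, against 12.6% (12.4 to 12.9). In base pairs, 9.45 Mb lay in peaks of both lists, 6.72% of the H3K4me3 sequence and 5.23% of the H3K9me3 sequence. The shifted lists shared 9.95 Mb. Only 1 list was given per mark for 6 libraries of 2 lines, so an overlap does not show both marks in the same line or cell. An H3K4me3 peak that met H3K9me3 was usually covered by it in full or nearly so: the median covered part was 99.4%, and 49.6% of these peaks lay wholly within an H3K9me3 peak. Such peaks were narrower than the other H3K4me3 peaks, with medians of 260 and 295 bp, and had a lower median fold enrichment, the authors' value for a peak, of 3.42 against 3.62.

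The small excess over all peaks was made of opposite values at the ends of the width range. Narrow H3K4me3 peaks lay on H3K9me3 more often than shifted, and wide ones, the size of promoter domains, less often. Width classes include their lower bound and stop short of their upper bound. Among peaks under 200 bp, 14.1% (13.9 to 14.3) lay on H3K9me3, against a shifted 8.25%, a ratio of 1.71. At 200 to 400 bp the share was 11.9% against 9.26%, a ratio of 1.29. From 400 bp upward each width class fell below its shifted range: 9.54% against 11.4% at 400 to 800 bp, and 9.92% against 15.1% at 800 to 1600 bp. At 1600 to 3200 bp it was 14.1% against 20.6%, and at 3200 bp or more 22.5% (20.4 to 24.7) against 29.96%, a ratio of 0.752. The share thus rose again in the widest classes, as did the shifted level, and stayed below it.

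**Figure D1:**
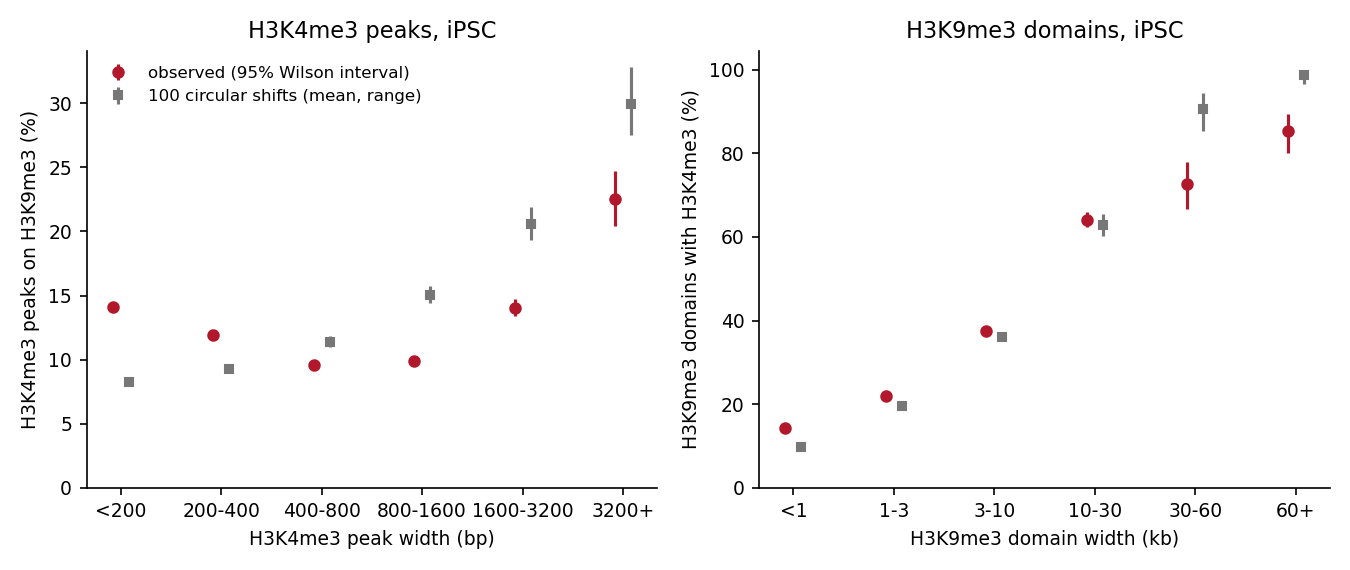
Left: percent of iPSC H3K4me3 peaks that share at least 1 bp with an H3K9me3 peak, by H3K4me3 width in bp. Right: percent of H3K9me3 domains that hold H3K4me3, by domain width in kb. Red circles with bars are the observed share and its 95% Wilson interval, and grey squares with bars are the mean and range of 100 circular shifts; observed shares lie above the shifts in the narrowest class and below them in the widest.

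Both signs recurred along the genome. The ratio of observed to shifted share for peaks under 400 bp was above 1 on 20 of 20 autosomes, with a mean of 1.47 ± 0.202 (SD over 20 autosomes). For peaks of 800 bp or more it was below 1 on 20 of 20, with a mean of 0.684 ± 0.115. For all peaks together the ratio ran from 0.787 on chromosome 19 to 1.53 on chromosome 5 and was below 1 on 3 autosomes. Chromosome 19 had the highest share of H3K4me3 peaks on H3K9me3, 17.0%, and also the highest shifted level, 21.7%. When the shift was kept to between 100 kb and 1 Mb, so that the H3K9me3 density of the neighbourhood was kept, its ratio was 1.01, and the ratio was above 1 on all 20 autosomes. With these short shifts the peaks under 200 bp had a ratio of 1.78 and those of 800 to 1600 bp one of 0.725.

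**Figure D2:**
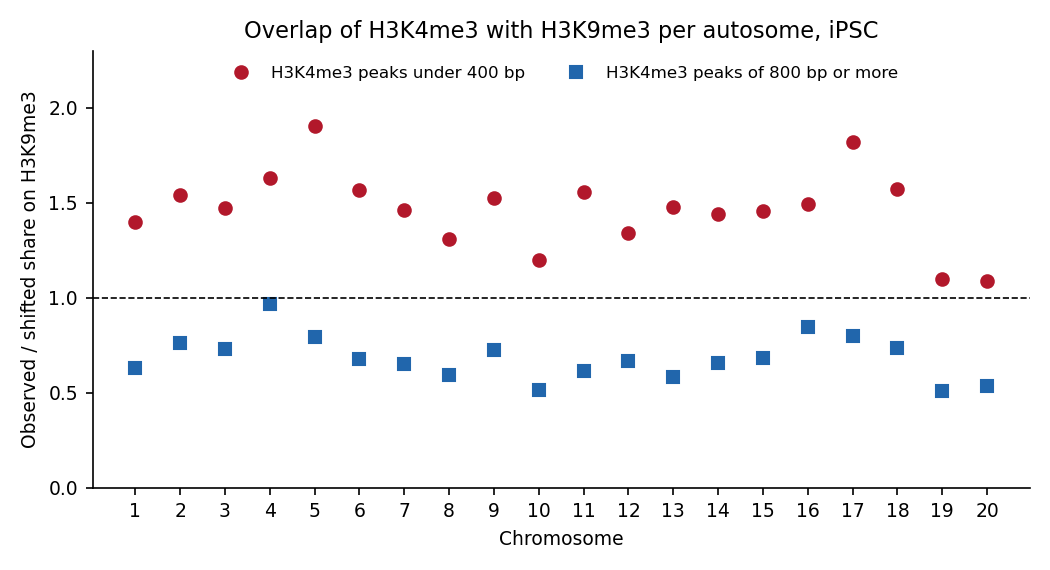
Ratio of the observed to the shifted share of iPSC H3K4me3 peaks on H3K9me3, for each of 20 autosomes. Red circles are peaks under 400 bp and blue squares peaks of 800 bp or more, and the dashed line marks a ratio of 1; each circle lies above the line and each square below it.

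Strength, taken as the −log10 q of a peak, went with the overlap too. When the H3K4me3 peaks were ranked by the authors' −log10 q into 5 groups of like size, 14.9% of the weakest group lay on H3K9me3 (shifted 8.91%) and 9.64% of the strongest (shifted 14.3%). Strength still made a difference within a width class. At 200 to 400 bp, the weakest peaks were on H3K9me3 in 14.9%, a ratio of 1.63, and the strongest in 8.15%, a ratio of 0.857. At 400 to 800 bp the values were 12.4%, a ratio of 1.13, and 7.70%, a ratio of 0.654. In both classes the peaks with the highest −log10 q were thus less often on H3K9me3 than those with the lowest.

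From the side of H3K9me3, narrow peaks met H3K4me3 more often than shifted and the widest less often. Of the H3K9me3 peaks under 400 bp, 11.3% (11.1 to 11.6) met H3K4me3, against 8.16%. The ratio was 1.11 at 400 to 800 bp, 1.12 at 800 to 1600 bp, 1.11 at 1600 to 3200 bp and 1.03 at 3200 to 6400 bp. Of the peaks of 6400 bp or more, 37.4% (495 of 1325) met H3K4me3, against 54.6%, a ratio of 0.684. With the short shifts that last ratio was 0.906.

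H3K9me3 peaks were also joined within 3 kb to 120449 domains with a median width of 826 bp, which covered 10.9% of the autosomes. H3K4me3 became sparser within domains as these grew wider. Its cover was 8.13% of the sequence of domains under 1 kb, 4.98% at 1 to 3 kb, 4.29% at 3 to 10 kb and 4.05% at 10 to 30 kb. It was 2.52% at 30 to 60 kb and 1.47% at 60 kb or more, where 212 domains held 39.9 Mb. The autosomal mean is 5.42%, so domains under 1 kb lay above it and all wider classes below. Of the domains under 1 kb, 14.3% held H3K4me3 (shifted 9.71%). At 3 to 10 kb the share was 37.6% (shifted 36.2%), and at 10 to 30 kb 64.1% (62.3 to 66.0), within the range of the shifts of 60.2 to 65.4. At 30 to 60 kb it was 72.7% (66.7 to 78.0), against 90.6%. Of the domains of 60 kb or more, 85.4% (80.0 to 89.5) held at least 1 H3K4me3 peak, against 98.8%. With short shifts the ratios of the last 2 classes were 0.900 and 0.918.

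Over domains of all widths, H3K4me3 that met a domain lay nearer to the edges and less often deep inside than in the shifted lists. A narrow domain has no sequence 1 kb or more from both boundaries, and the median domain was 826 bp wide. The place thus also depends on which domain widths were met. The excess just inside boundaries was that of narrow H3K4me3 peaks, and at 400 to 800 bp the ratio there was 0.754. Domains of 10 kb or more did not show it, with a ratio of 0.952. In all, 40597 H3K4me3 peaks touched a domain, 13.2%, which is within the range of the shifts (12.7 to 13.4). Of these, 26764 (65.9%) lay wholly inside, against 71.6% shifted. A boundary was crossed by 10921 (26.9%), against 24.7%, and 2912 (7.17%) held a whole small domain within themselves, against 3.72%. Of the inside peaks, 13109 lay 1 kb or more from the nearest boundary, 0.771 times the shifted share, and 13655 lay closer, 1.17 times. The inside peaks also favoured the H3K9me3 peaks of a domain over the gaps between them: 13.6% sat in a gap, against 28.1%. This preference for H3K9me3 sequence was that of narrow peaks. Under 200 bp, 10.6% of the inside peaks sat in a gap (shifted 33.1%), while at 800 to 1600 bp 21.5% (19.0 to 24.3) did so, above the shifted 14.3%.

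The place of a peak changed with its width. Peaks under 200 bp were at the shifted share deep inside domains (a ratio of 1.03), above it just inside the boundary (1.52) and across it (1.87). Peaks of 1600 to 3200 bp were at 0.241 times the shifted share deep inside, 0.327 times just inside and 0.553 times across the boundary. Around a whole domain they were at 1.52 times. Of the 1404 peaks of this width that touched a domain, 50.1% (47.5 to 52.8) held one whole, against 22.6% shifted. Of the 325 touching peaks of 3200 bp or more, 66.8% (61.5 to 71.7) did so, against 42.3%, and 16 lay inside. Of all peaks of 3200 bp or more, touching or not, 15.0% held a domain, within the range of the shifts of 10.5 to 15.2. Wide H3K4me3 peaks that met H3K9me3 thus mostly held or crossed a domain and seldom lay within it.

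**Figure D3:**
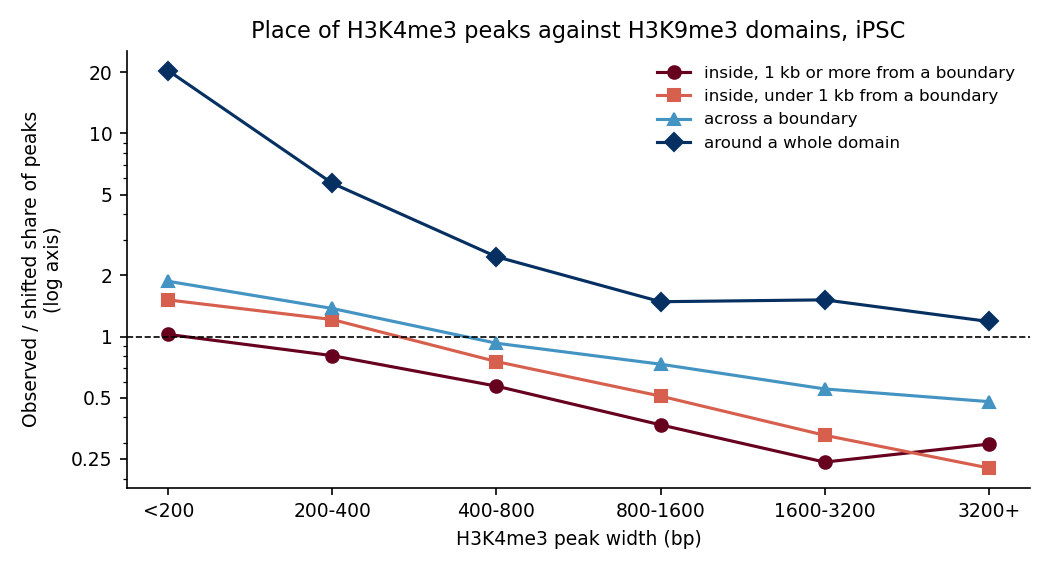
Ratio of the observed to the shifted share of iPSC H3K4me3 peaks in 4 places relative to H3K9me3 domains, by H3K4me3 width in bp; the vertical axis is logarithmic and the dashed line marks a ratio of 1. Peaks deep inside fall from 1.03 under 200 bp to 0.241 at 1600 to 3200 bp, while peaks around a whole domain stay above 1 in each class. At 3200 bp or more the share around a whole domain was within the range of the shifts.

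Wide domains, taken without the small domains that dominate the counts, had less H3K4me3 than shifted lists deep inside and also just outside. Domains of at least 10 kb, 3054 in number, were touched by 7048 H3K4me3 peaks, against 10925 on average in shifted lists. Deep inside were 6014 peaks, 0.610 times the shifted number. Within 1 kb of the inner side of a boundary were 696, 0.952 times, and 338 crossed a boundary, 0.998 times. In windows of 500 bp around their boundaries, H3K4me3 covered 5.25% of the first window inside, where the shifts covered 5.51% (range 4.89 to 6.07). It covered 3.75% of the next window and 3.54% of that at 4.5 to 5 kb. Just outside, the first window had 2.94%, the lowest value of the profile, and the cover was 4.02% at 2.5 to 3 kb outside. H3K27ac also rose from the first window outside, 0.755%, to the first inside, 1.35%, but its lowest values lay in the interior, with 0.515% at 4 to 4.5 kb inside, against shifted levels near 2.09%. Every domain starts with an H3K9me3 peak by definition, so the first window inside was 85.4% H3K9me3 and the next 51.2%. The peak of H3K4me3 at the edge thus fell on the window with the most H3K9me3, and it also had the most H3K27me3, 20.5%. At the 450 domains of 30 kb or more, H3K4me3 covered 1.67% of the first window outside and 2.21% at 2.5 to 3 kb outside. It covered 2.17% at 4.5 to 5 kb inside, and the shifts covered 6.23%, 6.20% and 6.19% of these windows. The first window inside these domains had 3.19%, against a shifted 6.22%. H3K4me3 below the shifted level was thus not confined to the interior of wide domains. The 3 kb outside a boundary hold no H3K9me3 by the joining rule, and the shifted levels do not allow for this.

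**Figure D4:**
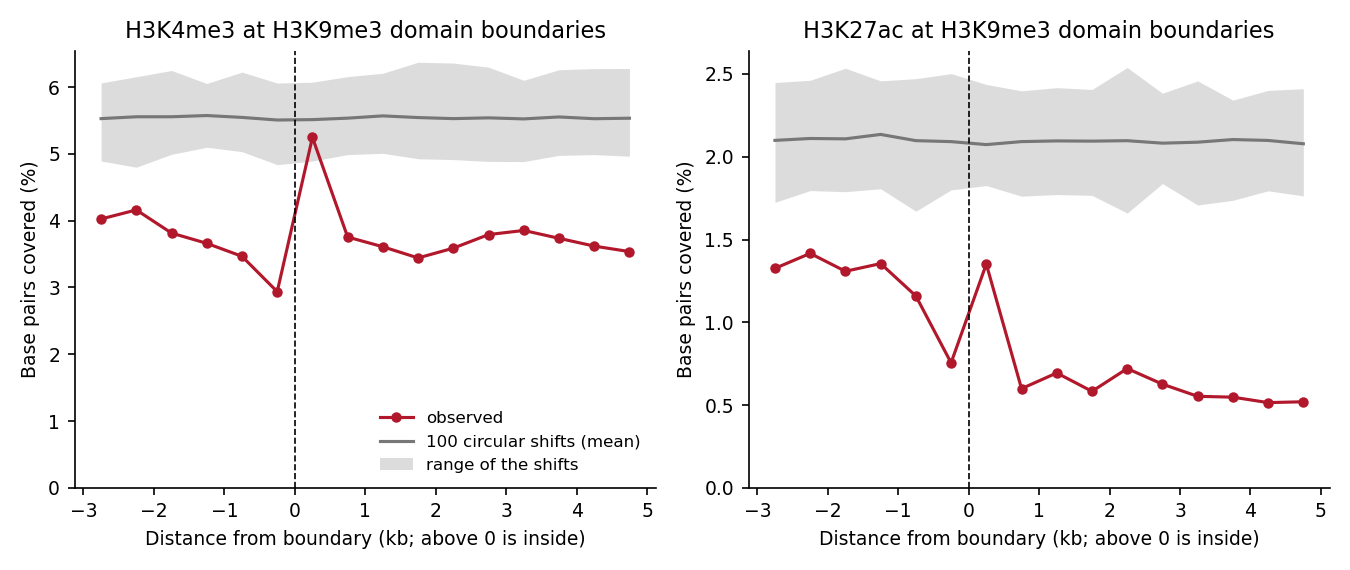
Percent of base pairs covered by H3K4me3 (left) and H3K27ac (right) in windows of 500 bp around the boundaries of 3054 iPSC H3K9me3 domains of at least 10 kb; values above 0 kb lie inside. Red is observed, the grey line and band are the mean and range of 100 circular shifts; H3K4me3 is 5.25% in the first window inside and 2.94% in the first outside.

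H3K27ac lay less often on H3K4me3 peaks that were on H3K9me3 than on the others. It overlapped 7551 of the 36951 peaks on H3K9me3, 20.4% (20.03 to 20.85), and 93413 of the 271111 off it, 34.5% (34.3 to 34.6). The shifted levels were 5.42% and 5.52%. The difference had the same sign on 20 of 20 autosomes, with a mean of −13.9 ± 1.39 percentage points (SD over 20 autosomes). In the width classes below 800 bp it was over 10 points, and it was smaller above. Under 200 bp, 9.37% (8.87 to 9.89) of the peaks on H3K9me3 and 22.5% (22.2 to 22.8) of those off it had H3K27ac, and at 400 to 800 bp 32.3% and 43.8%. At 1600 to 3200 bp the shares were 50.2% (47.6 to 52.8) and 53.5% (52.5 to 54.6), with intervals that overlap. At 3200 bp or more they were 29.8% (25.1 to 35.0) and 38.3% (35.5 to 41.2), with intervals that just miss each other. The intervals treat peaks as independent, so whether they overlap is no test of a difference. When the peaks off H3K9me3 were weighted to the widths and strengths of those on it, 32.3% of them had H3K27ac, against 34.5% unweighted. H3K27me3 was not part of this weighting.

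The share with H3K27ac went with the place of a peak relative to a domain. Over all widths it differed little between peaks deep inside and just inside the boundary. It was higher in peaks that crossed a boundary or held a whole domain. Such peaks reach beyond the domain, and H3K27ac was counted anywhere on the peak. Whether that H3K27ac lay within the domain was not tested. H3K27ac overlapped 13.3% (12.7 to 13.9) of the H3K4me3 peaks deep inside a domain and 14.3% (13.8 to 14.9) of those just inside the boundary. It overlapped 30.8% (29.9 to 31.6) of those across a boundary and 49.0% (47.2 to 50.9) of those around a whole domain. The last class was wider, with a median of 934.5 bp against 230 bp deep inside. Within the class of 200 to 400 bp the order was the same: 12.7%, 13.6%, 25.8% and 39.6%, against 32.2% off domains. At 1600 to 3200 bp it was not kept, with 28.6% of 105 peaks deep inside, 46.7% of 60 just inside, 38.7% across and 62.4% around a domain. At 3200 bp or more, 19.6% of 92 peaks across a boundary had H3K27ac and 34.1% of those around a domain. Peaks in the gaps of a domain had H3K27ac in 25.8% (24.4 to 27.2).

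Of the 2 other marks of iPSC, H3K27me3 separated the H3K4me3 peaks on and off H3K9me3 more than H3K27ac did. It touched 59.5% of those on H3K9me3 and 9.32% of those off it, against a shifted 5.80% and 5.77%, and weighting for width and strength left the second value at 9.22%. H3K27me3 and H3K9me3 also met without H3K4me3. In iPSC, 76.7% of the H3K27me3 peaks lay on H3K9me3 (12.0% on shifted H3K9me3), and 30.6% of the H3K9me3 base pairs free of H3K4me3 were in H3K27me3. Of the base pairs with both H3K4me3 and H3K9me3, 56.9% were in H3K27me3. Touching H3K27me3 is therefore not independent of H3K9me3, and the values of the peaks split by it are descriptions. Among the 47277 H3K4me3 peaks that touched H3K27me3, 46.5% lay on H3K9me3, 3.64 times the shifted level. Among the 260785 that did not, 5.73% did so, 0.575 times the shifted level. In this second set all width classes were below their shifted level, from 0.835 times under 200 bp to 0.232 times at 1600 to 3200 bp and 0.0698 times in the 154 peaks of 3200 bp or more. Leaving out these peaks removes overlap with the 32.0% of the H3K9me3 base pairs that lie in H3K27me3, while the shifted list keeps them, so ratios below 1 are in part set by the split.

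With H3K27me3 held apart, peaks on H3K9me3 had less H3K27ac over all widths. The shares on and off H3K9me3 were 27.5% and 35.4% among peaks free of H3K27me3. They were 15.6% and 25.1% among those that touched it, where median widths were 267 and 755.5 bp. Within width classes, the share on H3K9me3 was the lower only in some. These were peaks free of H3K27me3 and under 800 bp, and the widest that touched H3K27me3, where the intervals overlapped. Among peaks free of H3K27me3, 14.6% (13.7 to 15.6) of those under 200 bp on H3K9me3 had H3K27ac, against 23.3% (23.0 to 23.6) off it. At 400 to 800 bp the shares were 42.9% (41.0 to 44.7) and 45.9% (45.5 to 46.4). At 800 to 1600 bp they were 62.6% (59.3 to 65.7) and 57.6% (56.9 to 58.3), and at 1600 to 3200 bp 78.3% (71.6 to 83.8) and 68.2% (66.7 to 69.7). Among peaks that touched H3K27me3, those under 200 bp had H3K27ac in 5.36% (4.87 to 5.91) on H3K9me3 and in 4.47% (3.79 to 5.26) off it, with intervals that overlap. Those of 200 to 400 bp had H3K27ac in 10.01% (9.37 to 10.7) on H3K9me3 and in 9.33% (8.56 to 10.2) off it, and those of 400 to 800 bp in 23.8% (22.4 to 25.3) and 20.1% (19.05 to 21.3). At 800 to 1600 bp the shares were 41.7% (39.5 to 44.0) and 36.7% (35.5 to 37.9). At 1600 to 3200 bp they were 46.1% (43.3 to 48.9) and 42.8% (41.4 to 44.2), with intervals that overlap. At 3200 bp or more they were 29.2% (24.5 to 34.4) and 31.4% (28.6 to 34.4), also with intervals that overlap.

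**Figure D5:**
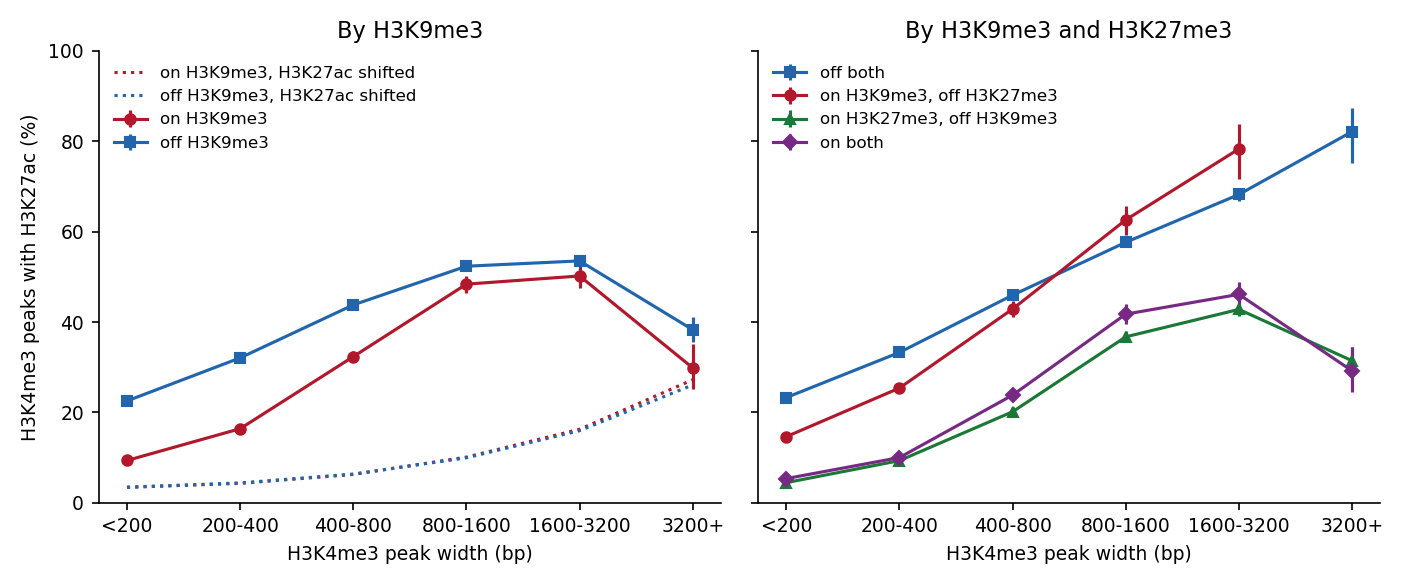
Percent of iPSC H3K4me3 peaks that share at least 1 bp with an H3K27ac peak, by H3K4me3 width in bp, with 95% Wilson intervals. Left: peaks on (red) and off (blue) H3K9me3, with dotted lines for shifted H3K27ac. Right: the same peaks split by H3K9me3 and H3K27me3, for classes of at least 20 peaks; the 2 upper lines, free of H3K27me3, cross between 400 and 1600 bp.

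Among the H3K9me3 domains, H3K27ac was found more often in those that held H3K4me3 than in the others. It met 7466 of the 26237 domains with H3K4me3, 28.5% (27.9 to 29.0), and 3173 of the 94212 without, 3.37% (3.25 to 3.49). Domains with H3K4me3 were wider, so the classes matter. Under 1 kb the shares were 29.5% and 2.94%, with shifted levels of 5.56% and 5.37%. At 3 to 10 kb they were 29.6% and 5.29%, with shifted levels of 30.7% and 28.8%. At 10 to 30 kb they were 33.4% and 6.32%, with shifted levels of 55.7% and 54.2%. A small domain with H3K4me3 thus held H3K27ac 5.32 times as often as shifted, and one of 10 to 30 kb 0.599 times. Of the 31 domains of 60 kb or more without H3K4me3, 0 had H3K27ac, which allows a share of up to 9.68% by the limit of 3 counts and up to 11.03% by the Wilson interval. H3K27ac peaks as a whole kept off domains, with 6.11% touching one against a shifted 12.0%. Of those that did touch one, 63.6% (62.8 to 64.4) overlapped an H3K4me3 peak, against 50.3% (50.1 to 50.5) of the H3K27ac peaks off domains. The shifted levels were 8.24% and 8.23%, so H3K27ac went with H3K4me3 off domains too.

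The number of H3K4me3 peaks and their H3K27ac varied with the density of H3K9me3 in the surroundings. Bins were sorted by H3K9me3 cover, so a rise in the overlap with H3K9me3 is built into the sorting. In the 1012 autosomal bins of 1 Mb with under 5% H3K9me3 there were 126 H3K4me3 peaks per Mb, of which 7.59% lay on H3K9me3. H3K9me3 covered 3.71% of these bins. In the 40 bins with 40% or more, where H3K9me3 covered 63.9%, there were 55.6 per Mb, of which 72.3% lay on it. H3K27ac overlapped 23.8% of the peaks on H3K9me3 and 35.2% of those off it in the first group of bins. In the last group it overlapped 10.3% and 28.9%, so the gap in acetylation was present at both ends.

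The 5 widest H3K4me3 peaks wholly inside a domain were 3.70 to 4.46 kb wide and had little H3K27ac. The widest, at 96544210 to 96548672 of chromosome 9, lay in an 11.7 kb domain with H3K9me3 over 76.7% and H3K27me3 over 98.4% of its length. That at 21633266 to 21637246 of chromosome 1 had both marks over all of its length, and H3K9me3 in ESC as well. The peak at 55532788 to 55537009 of chromosome 10 had H3K9me3 over 65.8% of its length in iPSC and none in ESC, while ESC H3K4me3 covered 99.6%. H3K27ac was absent from 4 of these 5 and covered 3.98% of the other one, at 137871189 to 137874886 of chromosome 4.

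The 5 widest peaks across a boundary were mostly covered by H3K27me3 and varied in H3K9me3. The widest H3K4me3 peak of the list, 15.5 kb at 148985696 to 149001188 of chromosome 2, had H3K9me3 over 3.71% and H3K27me3 over its whole length. In the other 4 the H3K9me3 part was between 0.944% and 41.7%, the latter at 122482801 to 122489191 of chromosome 1, and the H3K27me3 part was at least 85.7%.

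The 5 widest domains were 1102 to 2044 kb long and kept scattered H3K4me3. That at 132904327 to 134948734 of chromosome 8 held 89 H3K4me3 peaks over 1.13% of its length and 5 H3K27ac peaks. ESC H3K4me3 covered 3.93% of the same stretch and ESC H3K9me3 9.70%. The domain at 175335242 to 177054356 of chromosome 3 held 71 H3K4me3 peaks (1.26%), and 2 on chromosome 20 held 69 and 65. That at 88535072 to 89637399 of chromosome 10 held 72, over 2.01% of its length, where ESC H3K4me3 covered 7.51%.

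Taken mark by mark, most H3K4me3 peaks on H3K9me3 in iPSC lay on the same mark in ESC. Of these peaks, 67.8% overlapped ESC H3K4me3, against 69.9% of those off H3K9me3 and 65.4% of the latter when weighted for width and strength. ESC H3K9me3 lay on 79.5% of them and on 4.87% of the others. The same comparison within ESC gave a higher overlap, with 18.8% of the H3K4me3 peaks on H3K9me3 against a shifted 12.6%. By width, the ESC ratio was 2.13 under 200 bp and 1.13 at 400 to 800 bp, where that of iPSC was 0.837, and its lowest value was 0.516 at 1600 to 3200 bp, while that of iPSC was 0.659 at 800 to 1600 bp. In ESC, H3K27ac lay on 28.0% of the ESC peaks on H3K9me3 and 50.9% of those off it. With 1 list per cell type these differences between ESC and iPSC have no test, and the ESC lists of H3K9me3 and H3K27ac were longer.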

How the data were processed

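The 7 peak lists used here are those of H3K4me3, H3K9me3 and H3K27ac in iPSC and ESC and of H3K27me3 in iPSC, 1 list per cell type and mark. The labels give 60 libraries in 10 groups. Per the submitters' processing notes, the tools were SAMtools 1.10, deepTools, Picard and the peak caller MACS2. Which aligner, build and thresholds were used, and how libraries and inputs were pooled, were not given in the sources used here. Fold enrichment of a peak is a ratio from the caller that the authors ran, and the deposited −log10 q is its significance there. Both served to describe or sort the peaks of 1 list and were not set against those of another. Depth is unknown, since the lists hold no reads.

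Overlaps were computed with numpy 2.4.6 and pandas 2.3.3 in Python 3.11.15, with functions checked on intervals of known overlap. Lists were moved by at least 1 Mb around each chromosome, whose length was the furthest peak end of the lists used. Domains were H3K9me3 peaks joined within 3 kb; inside peaks were split at 1 kb from the nearest boundary. Peaks were named firm from a −log10 q of 5 in the narrow and 2 in the broad lists. The named regions were the 5 widest of each kind. The gene table at hand describes Panubis1.0; on 12 of 21 chromosomes its last gene ended over 5 Mb from the last peak, so no gene was joined and no sequence is printed. The members, width classes and measures were chosen with earlier results of these data known. The split by H3K27me3, strength, 1 Mb bins, boundary windows and ESC were added after these values were seen. Only 1 list was given per cell type and mark, so p-values were not computed.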

Additional observations from a re-analysis of the deposited data

Results flagged for a closer look

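Peaks outside chromosomes 1 to 20 were not part of the comparison, and some of them overlapped. They are listed because the shares pass the limit that a count of 0 allows, which shows only that overlaps occurred. On the X chromosome, 507 of 8871 iPSC H3K4me3 peaks lay on H3K9me3, 5.72% (95% Wilson interval 5.25 to 6.22), where a count of 0 would allow up to 0.0338%. On 6299 unplaced scaffolds, 8232 of 13490 did so, 61.0% (60.2 to 61.8), where a count of 0 would allow up to 0.0222%. H3K27ac overlapped 13.4% of the scaffold peaks on H3K9me3 and 30.8% of those off it, and on the X 13.6% and 20.5%. Neither value was set against shifted lists.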

How the results depend on the processing

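No paired analysis was possible because only 1 list was given per cell type and mark, and for the same reason no replicate could be left out. With firm peaks alone, 8.43% of the H3K4me3 peaks lay on H3K9me3 and 11.1% of the H3K9me3 peaks on H3K4me3. The ratio to the shifted level then turned from 1.15 to 0.949, while peaks under 200 bp kept a ratio of 1.68. A boundary was crossed by 27.9% of touching peaks, H3K27ac lay on 15.5% of the H3K4me3 peaks on and 27.1% of those off H3K9me3, and on 19.8% and 1.49% of the domains with and without H3K4me3. Without the 1 Mb bins with at least 20% H3K9me3, the first 2 shares were 11.3% and 15.1%, the ratio 1.31, the crossing share 28.5% and the H3K27ac share on H3K9me3 21.2%. With at least 50% of a peak covered, the 2 shares were 9.51% and 5.71% and the ratio 1.41. With that cover required of H3K27ac too, H3K27ac lay on 11.4% on and 23.1% off H3K9me3. Shifts of 100 kb to 1 Mb gave a ratio of 1.24. With touching H3K9me3 peaks alone joined, 36.5% crossed a boundary and H3K27ac lay on 22.0% and 2.02% of the domains with and without H3K4me3. Joined within 10 kb, the values were 10.8%, 50.6% and 7.45%. With H3K27ac counted within 1 kb, 30.1% on and 50.5% off H3K9me3 had it. A further 2 settings were added after the data were seen. Without the peaks that touch H3K27me3, 5.73% lay on H3K9me3, the ratio turned to 0.575, and H3K27ac lay on 27.5% and 35.4%. With the peaks also found in ESC, these values were 11.7%, 1.05, 26.2% and 39.7%. H3K27ac was lower on than off H3K9me3 in all 8 settings, the main included. The setting without H3K27me3 lowers the ratio in part by its construction, since the shifted H3K9me3 list keeps its H3K27me3 sequence; the cause of the turn with firm peaks was not tested. Merging peaks changed nothing, as none overlapped. Depth limits how many weak peaks a list holds, and it is unknown.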
